A study of Mus musculus with 12 samples.

Results

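A set of 10 genes that mark mast cells were followed through mouse skin injected with the cathelicidin peptide LL37, with and without rapamycin. They were chosen by name from the 52636 genes counted. They comprise the granule proteases Cma1, Mcpt4, Cpa3, Tpsb2 and Tpsab1, the receptors Kit, Ms4a2, Fcer1a and Mrgprb2, and the histamine-forming enzyme Hdc. All 10 were found in the count table by their Ensembl identifiers, and 10 of 10 passed the filter on low counts.

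RNA was sequenced from skin of BALB/c mice in 12 libraries, with 3 in each of 4 groups. Control mice had vehicle, and LL37 mice had 40 μl of LL37 at 320 μM, injected into the dermis of the back 2 times per day for 2 days. In the control+RAPA and LL37+RAPA groups, mice also received rapamycin, an inhibitor of the kinase complex mTORC1, which in BALB/c mice was given intraperitoneally at 4 mg/kg per day. The BALB/c mice were female and 6 to 8 weeks of age, and mice of the LL37 model 8 weeks. These doses, the route, sex and age are from general methods that do not name the sequenced mice. No group carried a genetic change. The groups hold whole skin, so that fewer mast cells and less RNA per mast cell cannot be told apart in any value below. For its RNA-sequencing heatmap of mouse skin the paper states 3 independent biological samples per group. Nothing names the mouse that each library came from or a sequencing batch, so p-values measure the spread between these libraries.

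Mast cells are long-lived immune cells that settle around vessels and nerves of the dermis. They store histamine and proteases, bound to heparin, in granules and release them when IgE on the high-affinity receptor FcεRI is cross-linked or when cationic ligands engage the receptor Mrgprb2. The growth factor receptor Kit keeps them alive in tissue. Connective tissue mast cells of mouse skin hold the chymases Cma1 and Mcpt4, the tryptases Tpsb2 and Tpsab1, and carboxypeptidase A3 (Cpa3).

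On the mouse build GRCm38, in the GENCODE M21 annotation, the chymase genes lay on the minus strand of chromosome 14, Cma1 (ENSMUSG00000022225) at chr14:55941451-55944675 and Mcpt4 (ENSMUSG00000061068) at chr14:56059629-56062313. Cpa3 (ENSMUSG00000001865) was at chr3:20215620-20242181, and the tryptase genes Tpsab1 (ENSMUSG00000024173) and Tpsb2 (ENSMUSG00000033825) were on opposite strands at chr17:25343245-25345562 and chr17:25366305-25369098. The receptor genes were Kit (ENSMUSG00000005672) at chr5:75574916-75656722, Ms4a2 (ENSMUSG00000024680) at chr19:11615523-11623719, Fcer1a (ENSMUSG00000005339) at chr1:173221284-173227214 and Mrgprb2 (ENSMUSG00000050425) at chr7:48550965-48558086. Hdc (ENSMUSG00000027360) was at chr2:126593667-126619299. Of these genes, only Cpa3 overlapped another annotated gene, the miRNA gene Mir7007, which shared 0 exonic bases with it and held 7 counts in all libraries. Stretches of 100 bases in the reference transcripts were shared with another gene in 1 of 1009 for Mcpt4 (with Cma2) and in 13 of 3203 for Ms4a2 (with Ms4a4b), and in 0 for the other members, so that Tpsb2 and Tpsab1 shared no such stretch.

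RefSeq promoter windows (GRCm38.p6, 250 bases before to 50 bases after the transcription start) were at hand for 8 of the 10 members. Those of 3 proteases whose levels varied together and of both members that differed between LL37 and control skin follow, each written 5′ to 3′ on the strand of its gene, the minus strand. Capitals mark matches to a GATA site, the binding motif of GATA factors such as Gata2, searched as GATA with A or T before it and A or G after it, on both strands. The windows are chr14:55944626-55944925 for Cma1, chr14:56062261-56062560 for Mcpt4, chr3:20242132-20242431 for Cpa3, chr2:126618629-126618928 for Hdc and chr7:48558037-48558336 for Mrgprb2.
Cma1: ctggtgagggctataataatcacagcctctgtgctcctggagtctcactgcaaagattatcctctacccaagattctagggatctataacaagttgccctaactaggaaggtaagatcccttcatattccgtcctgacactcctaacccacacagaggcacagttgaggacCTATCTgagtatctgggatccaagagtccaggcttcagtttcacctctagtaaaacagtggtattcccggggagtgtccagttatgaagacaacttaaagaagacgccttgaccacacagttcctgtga
Mcpt4: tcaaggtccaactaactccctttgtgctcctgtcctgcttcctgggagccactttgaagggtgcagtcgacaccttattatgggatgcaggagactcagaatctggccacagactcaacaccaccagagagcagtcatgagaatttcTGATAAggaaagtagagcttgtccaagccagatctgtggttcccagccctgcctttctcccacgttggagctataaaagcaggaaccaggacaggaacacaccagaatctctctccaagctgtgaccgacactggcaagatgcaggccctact
Cpa3: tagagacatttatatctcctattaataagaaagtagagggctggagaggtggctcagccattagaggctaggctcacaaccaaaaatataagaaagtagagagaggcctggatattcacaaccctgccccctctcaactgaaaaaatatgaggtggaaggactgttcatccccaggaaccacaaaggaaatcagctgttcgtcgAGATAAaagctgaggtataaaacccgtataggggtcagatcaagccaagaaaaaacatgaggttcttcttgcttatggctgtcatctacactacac
Hdc: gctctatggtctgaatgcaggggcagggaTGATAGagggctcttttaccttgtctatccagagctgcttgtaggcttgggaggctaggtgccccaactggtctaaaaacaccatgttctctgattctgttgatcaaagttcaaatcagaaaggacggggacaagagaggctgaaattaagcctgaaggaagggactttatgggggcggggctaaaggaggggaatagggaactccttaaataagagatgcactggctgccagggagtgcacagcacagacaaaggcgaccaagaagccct
Mrgprb2: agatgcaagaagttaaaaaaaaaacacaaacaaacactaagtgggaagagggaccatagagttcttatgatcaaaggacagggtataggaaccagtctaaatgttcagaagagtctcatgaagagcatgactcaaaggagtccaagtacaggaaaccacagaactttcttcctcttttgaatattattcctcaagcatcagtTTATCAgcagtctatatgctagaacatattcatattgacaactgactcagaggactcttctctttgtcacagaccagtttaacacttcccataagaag

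Each of these windows held 1 match, which began 79 bases before the start in Cma1, 103 in Mcpt4, 46 in Cpa3, 48 in Mrgprb2 and 221 in Hdc. Ms4a2 held 3 matches, Fcer1a 1 and Kit 0, so 7 of 8 members with a window held the motif, as did 29.8% of all 32851 RefSeq windows of this length. An E-box (CANNTG) was in 6 of 8, against 72.3% of all windows. The Hdc window lies inside the gene as GENCODE annotates it, since the RefSeq start is downstream of the GENCODE start. A match describes letters in the reference sequence and does not show binding.

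The gene counts of a library summed to between 15734559 and 23271784. Levels are given as CPM, read counts relative to the TMM-normalized size of the library, on which a floor of 3 counts corresponds to 0.123 to 0.184 CPM, for counting error only. LL37 replicate 3 stood apart from the other LL37 libraries, with a summed level of the neutrophil list of 331 CPM against 2033 and 2896 CPM. Control replicate 1 stood apart from the other control libraries in the proteases. Values without one or the other are given beside several of the results.

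Per kilobase of exon, the order of levels in control skin was Mcpt4 (36.7 ± 20.9 CPM per kb, SD, n = 3), Tpsb2 (29.6 ± 23.2), Cma1 (26.3 ± 13.4), Tpsab1 (10.8 ± 9.77), Cpa3 (7.23 ± 4.49), Mrgprb2 (3.47 ± 0.438), Hdc (1.57 ± 0.892), Kit (0.899 ± 0.218), Fcer1a (0.593 ± 0.333) and Ms4a2 (0.461 ± 0.366). Every pair of neighbours in this order overlapped within 1 SD, except Mrgprb2 and Hdc. Mcpt4 was first in all 4 groups. In LL37 skin Hdc stood second at 29.3 ± 23.0 CPM per kb, and Mrgprb2 was ninth at 0.929 ± 0.832. In the other groups they were seventh and sixth.

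**Figure D1:**
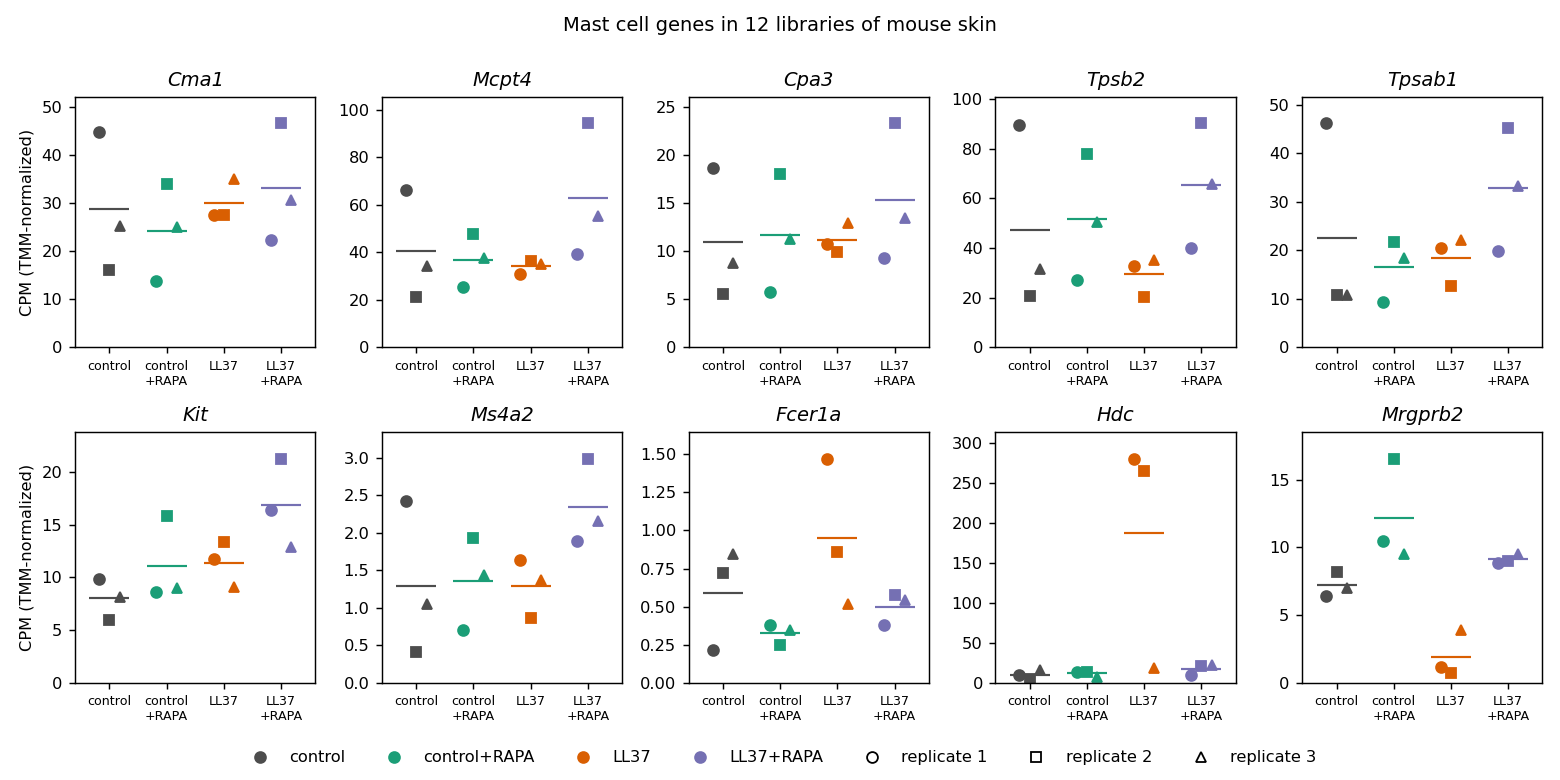
Level (CPM, TMM-normalized, linear axes from 0) of each of the 10 mast cell genes in 12 libraries. Points are libraries, coloured by group with the shape giving the replicate number, and horizontal lines are group means (n = 3). Control replicate 1, control+RAPA replicate 2 and LL37+RAPA replicate 2 are the highest of their groups for each of the 5 proteases, whereas Mrgprb2 is lowest in the 3 LL37 libraries and Hdc is 265 CPM or more in LL37 replicates 1 and 2.

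The first question was whether LL37 injection changes these genes in skin without rapamycin. In LL37 skin the histamine-forming enzyme Hdc was higher and the receptor Mrgprb2 was lower than in control skin, while none of the 5 granule proteases, Kit or either FcεRI subunit passed the test. A gene was called a DEG at an adjusted p under 0.05 in edgeR's quasi-likelihood test with Benjamini-Hochberg adjustment over 17993 genes and an absolute log2 fold change above 1. By this rule 2 of 10 members were DEGs, 1 in each direction, against 19.5% of all genes tested (8.73% higher and 10.8% lower). The libraries of both groups did not overlap for 2 of 10 members, against 49.7% of all genes. The median log2 fold change was 0.018 over the members and -0.005 over all genes.

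Hdc, which makes histamine from histidine, was at 9.44, 4.67 and 16.0 CPM in control replicates 1 to 3 and at 280, 265 and 17.9 CPM in LL37 replicates 1 to 3. LL37 replicates 1 and 2 were thus far above every control library, and LL37 replicate 3 was just above the highest of them. The mean level was 188 ± 147 CPM (SD, n = 3) against 10.04 ± 5.70 CPM. The log2 fold change was 4.22 (SE 0.84, adjusted p = 0.00192, edgeR), an 18.7-fold difference. Without LL37 replicate 3 it was 4.79 (adjusted p = 8.09e-06, edgeR).

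Neutrophils also transcribe Hdc, and their markers moved with it. All 9 tested genes of the 10 on the neutrophil list were DEGs higher in LL37 skin (8.73% of all genes were), with a median log2 fold change of 5.37, and the tenth, Ly6g, had 1 count in the control libraries together and 51 in the LL37 libraries. Among them were the receptors Cxcr2 (log2 fold change 5.69, adjusted p = 0.000359) and Csf3r (4.74, adjusted p = 0.000351), the collagenase Mmp8 (4.50, adjusted p = 0.00061) and the activating receptor Trem1 (6.62, adjusted p = 0.00172), all by edgeR. The summed level of the list was 63.5 to 142 CPM in control, 99.6 to 108 CPM in control+RAPA, 331 to 2896 CPM in LL37 and 206 to 590 CPM in LL37+RAPA libraries. LL37 replicate 3 was the lowest LL37 library for both Hdc and this list. The basophil proteases Mcpt8 and Prss34 held at most 4 counts over the 3 libraries of any group, and the summed basophil list was 1.14 to 2.26 CPM in LL37 against 1.23 to 2.002 CPM in control skin. What part neutrophil RNA has in the level of Hdc was not tested.

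Mrgprb2, the mast cell receptor for cationic peptides and drugs, was at 6.42, 8.20 and 7.01 CPM in control replicates 1 to 3 and at 1.14, 0.735 and 3.91 CPM in LL37 replicates 1 to 3. Every LL37 library was below every other library of the study, and LL37 replicate 3 was the highest of them. The log2 fold change was -1.86 (SE 0.45, adjusted p = 0.00609, edgeR), a level 3.63-fold lower in LL37 skin. Without LL37 replicate 3 it was -2.89 (adjusted p = 2.15e-05, edgeR), more than 1.5 times as large on the log2 scale.

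Fat and muscle markers fell in the same libraries. The adipocyte list had 8 of 8 genes as DEGs lower in LL37 skin (10.8% of all genes were), with summed levels of 431 to 869 CPM against 1428 to 2634 CPM in control skin, and the skeletal muscle list had 19 of 19 tested, with 87.3 to 1095 CPM against 41850 to 60760 CPM. Their part in the level of Mrgprb2 was not tested. With the muscle list removed before normalization, Mrgprb2 stayed a DEG, which bears on the scaling of libraries and not on their make-up of tissue. The plot of Hdc and Mrgprb2 against marker sums shows these libraries.

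**Figure D2:**
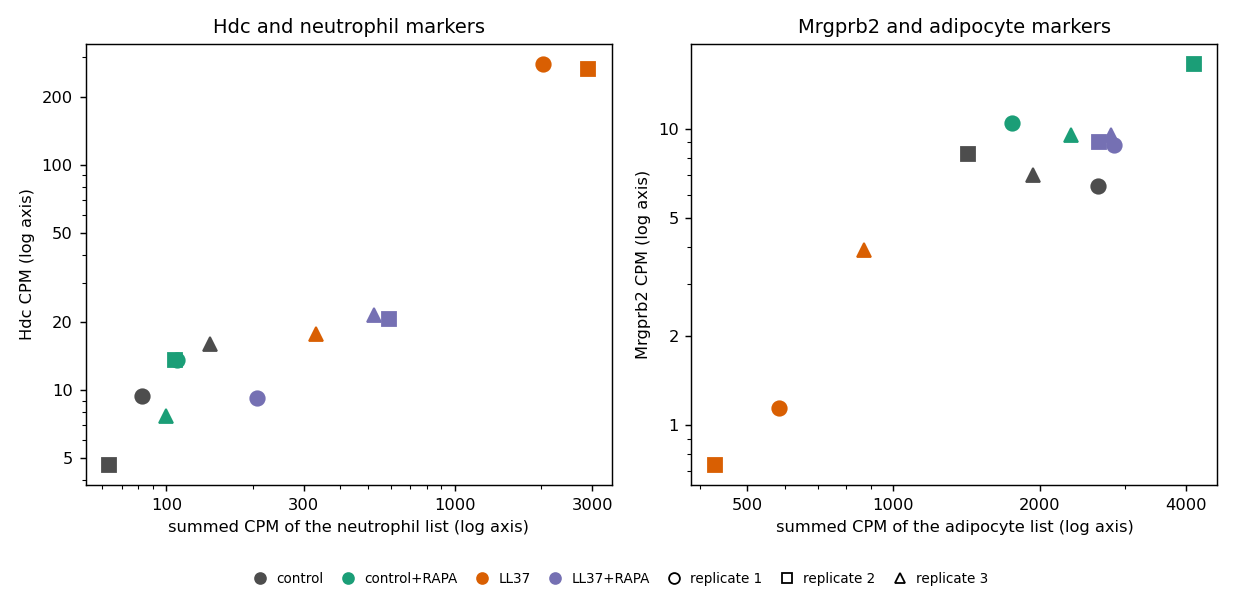
Level of Hdc against the summed level of the neutrophil list (left) and of Mrgprb2 against the summed level of the adipocyte list (right), in CPM on log axes. Each point is a library, coloured by group with the shape giving the replicate number. LL37 replicates 1 and 2 lie at the upper right on the left panel (265 and 280 CPM of Hdc) and at the lower left on the right panel, with LL37 replicate 3 nearer to the other groups in both.

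The proteases spread widely within groups. Summed over the 5 genes, they were at 265, 74.3 and 111 CPM in control replicates 1 to 3, a 3.57-fold range, and at 123, 107 and 141 CPM in LL37 replicates 1 to 3. All 3 LL37 libraries lay inside the range of the control libraries. The group means were 150 ± 102 CPM in control and 123 ± 17.0 CPM in LL37 skin (SD, n = 3).

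None of the 5 passed the test. Among the chymases, which cleave after aromatic residues, the log2 fold change of Cma1 was 0.07 (95% interval -0.79 to 0.92, adjusted p = 0.909, edgeR) and that of Mcpt4 was -0.25 (-1.12 to 0.61, adjusted p = 0.639). Carboxypeptidase A3, which trims C-terminal residues, was at 0.03 (-1.02 to 1.09, adjusted p = 0.961). Among the tryptases, which cleave after basic residues, Tpsb2 was at -0.68 (-1.82 to 0.47, adjusted p = 0.323) and Tpsab1 at -0.28 (-1.47 to 0.90, adjusted p = 0.705). Each interval spans 0. The limit farther from 0 runs from 0.92 for Cma1 to -1.82 for Tpsb2, so for each gene changes up to its own limits are not excluded. Without control replicate 1, the highest control library, the log2 fold changes of the 5 proteases were all above 0, between 0.18 and 0.79, with adjusted p between 0.154 and 0.786.

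Among the receptors, Kit was at 9.87, 5.998 and 8.17 CPM in control and 11.7, 13.4 and 9.09 CPM in LL37 replicates 1 to 3, and the groups overlapped (log2 fold change 0.51, SE 0.28, adjusted p = 0.172, edgeR). Ms4a2, the signal-amplifying β chain of FcεRI, had 8 to 45 counts per control library and 14 to 30 per LL37 library (log2 fold change 0.00, SE 0.52, adjusted p = 0.999). Without control replicate 1, where Ms4a2 was highest among the controls, its estimate was 0.82 (adjusted p = 0.255, edgeR). Fcer1a, the IgE-binding α chain, had 4 to 16 and 11 to 27 counts (0.66, SE 0.49, adjusted p = 0.302). Both subunits were close to the floor in some libraries, down to 0.410 CPM for Ms4a2 and 0.216 CPM for Fcer1a in control skin.

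**Figure D3:**
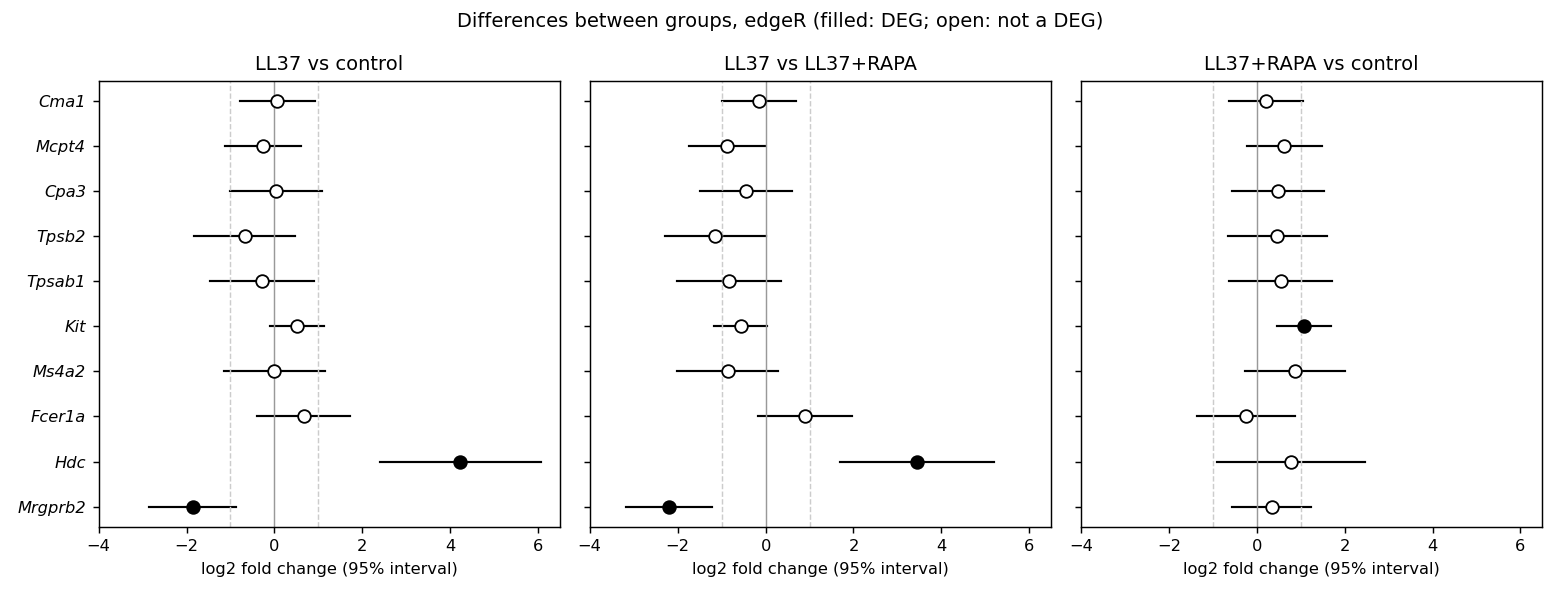
Log2 fold change of the 10 mast cell genes in LL37 vs control (left), LL37 vs LL37+RAPA (middle) and LL37+RAPA vs control (right), from edgeR. Circles are estimates, filled for DEGs, lines are 95% intervals, and dashed lines mark -1 and 1. Hdc lies at 4.22 and 3.44 and Mrgprb2 at -1.86 and -2.20 in the left and middle panels, and Kit at 1.07 is the filled circle of the right panel.

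The second question was whether rapamycin changes these genes in LL37 skin. Hdc was higher and Mrgprb2 lower in LL37 than in LL37+RAPA skin, the same directions as against control skin, with which this comparison shares the LL37 libraries. Again 2 of 10 members were DEGs, against 10.1% of all genes tested. Of the 10, 8 had lower estimates in LL37 than in LL37+RAPA skin, with a median log2 fold change of -0.698 against -0.004 over all genes. The libraries did not overlap for 4 of 10, namely Mcpt4, Tpsb2, Ms4a2 and Mrgprb2, against 38.3% of all genes.

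In LL37+RAPA replicates 1 to 3, Mrgprb2 was at 8.83, 9.01 and 9.51 CPM, all above the highest LL37 library, at 3.91 CPM. The log2 fold change between LL37 and LL37+RAPA was -2.20 (SE 0.45, adjusted p = 0.00643, edgeR), 4.59-fold lower in LL37. Without LL37 replicate 3 it was -3.26 (adjusted p = 3.04e-05, edgeR), again a larger difference. The adipocyte list was at 2647 to 2844 CPM in LL37+RAPA libraries, and 8 of 8 of its genes were DEGs lower in LL37 skin, against 5.8% of all genes. The skeletal muscle list was at 3968 to 8158 CPM in LL37+RAPA libraries. That lay above its 87.3 to 1095 CPM in LL37 and far below its 41850 to 60760 CPM in control libraries. The part of fat and muscle in the difference was not tested.

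Hdc was at 9.20, 20.8 and 21.6 CPM in LL37+RAPA replicates 1 to 3, the range of which includes LL37 replicate 3. The log2 fold change was 3.44 (SE 0.80, adjusted p = 0.0112, edgeR), and without LL37 replicate 3 it was 3.98 (adjusted p = 6.96e-05). The call was lost without LL37+RAPA replicate 1, the lowest of its group (3.14, adjusted p = 0.0521), and when only these groups were fitted (adjusted p = 0.051). On the neutrophil list 3 of 9 tested genes were DEGs in the same direction, against 4.33% of all genes. They were S100a8 (log2 fold change 3.18, adjusted p = 0.0394, edgeR), S100a9 (3.31, adjusted p = 0.0367) and Cxcr2 (2.22, adjusted p = 0.0395), each with overlapping libraries as for Hdc. Not called were Trem1 (adjusted p = 0.072, edgeR), Retnlg (0.11), Csf3r (0.189), Il1r2 (0.192), Mmp8 (0.64) and Mmp9 (log2 fold change 0.01). Here too the part of neutrophil RNA was not tested.

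Of the proteases, Mcpt4 was at 31.0, 36.2 and 35.04 CPM in LL37 and at 39.2, 94.2 and 55.1 CPM in LL37+RAPA replicates 1 to 3. The groups did not overlap, by a narrow margin, and the difference did not pass adjustment (log2 fold change -0.88, SE 0.40, adjusted p = 0.124, edgeR). Tpsb2 was at 32.8, 20.3 and 35.3 CPM against 39.9, 90.2 and 66.0 CPM, also without overlap (-1.15, SE 0.52, adjusted p = 0.131, edgeR). Tpsab1 (-0.83, adjusted p = 0.286), Cpa3 (-0.45, adjusted p = 0.517) and Cma1 (-0.15, adjusted p = 0.812) overlapped. Summed over the 5 proteases, LL37+RAPA replicates 1 to 3 were at 131, 299.5 and 198 CPM, of which replicate 1 lay between the LL37 libraries.

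Ms4a2 had 30, 14 and 29 counts in LL37 and 40, 73 and 48 in LL37+RAPA replicates 1 to 3, without overlap in CPM (log2 fold change -0.86, SE 0.52, adjusted p = 0.248, edgeR). Kit (-0.57, SE 0.28, adjusted p = 0.153) and Fcer1a (0.91, SE 0.49, adjusted p = 0.196) overlapped between these groups and did not pass.

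When LL37+RAPA was compared with control skin, Kit was the only member called, 1 of 10 against 6.49% of all genes tested. The libraries did not overlap for 2 of 10 members, Kit and Mrgprb2, against 36.4% of all genes. Kit was at 16.4, 21.3 and 12.9 CPM in LL37+RAPA replicates 1 to 3, above the highest control library at 9.87 CPM. The mean was 16.9 ± 4.19 CPM against 8.01 ± 1.94 CPM (SD, n = 3), with a log2 fold change of 1.07 (SE 0.28, adjusted p = 0.0246, edgeR). The call depended on single libraries: it was lost without control replicate 2 (0.89, adjusted p = 0.0857), control replicate 3 (1.08, adjusted p = 0.0712), LL37+RAPA replicate 1 (1.09, adjusted p = 0.0518) or LL37+RAPA replicate 2 (0.87, adjusted p = 0.115).

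Melanocytes carry Kit as well. The summed melanocyte list was at 64.5 to 67.4 CPM in LL37+RAPA and 62.8 to 72.5 CPM in control skin, with overlapping ranges. Of the list, the transcription factor gene Sox10 was higher in LL37+RAPA than in control skin (log2 fold change 0.41, adjusted p = 0.0265, edgeR). The other tested genes did not share this rise. Mean CPM in LL37+RAPA was lower for Dct (17.6 against 23.5), Pmel (6.80 against 10.6) and Tyr (0.296 against 0.470). It was slightly higher for Tyrp1 (8.95 against 8.85) and Mlana (0.596 against 0.549). In LL37 skin the list was at 34.0 to 46.4 CPM. There 3 of its 6 tested genes, Pmel, Dct and Tyr, which serve pigment formation, were DEGs lower than in control skin, against 10.8% of all genes. The part of melanocytes in the level of Kit was not tested.

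Hdc and Mrgprb2 were not called between LL37+RAPA and control skin. The log2 fold change of Hdc was 0.78 (95% interval -0.91 to 2.47, adjusted p = 0.581, edgeR) with overlapping libraries. That of Mrgprb2 was 0.34 (-0.56 to 1.23, adjusted p = 0.663), although all 3 LL37+RAPA libraries lay above the highest control library at 8.20 CPM. In all, 9 of 10 members had higher estimates in LL37+RAPA, with a median of 0.515 against 0.005 over all genes. Without control replicate 1, Tpsab1 became a DEG (1.61, adjusted p = 0.0305, edgeR), and the estimates of the other 4 proteases were between 0.68 and 1.32, with adjusted p between 0.0654 and 0.32.

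Where both sides received rapamycin, 0 of 10 members were DEGs between LL37+RAPA and control+RAPA skin by edgeR, against 8.39% of all genes tested, with 0 at an unadjusted p under 0.05 (30.7% of all genes) and 0 by DESeq2. The estimates of Kit (0.60, SE 0.28, adjusted p = 0.167) and Mcpt4 (0.77, SE 0.39, adjusted p = 0.217) had the smallest p-values. Mrgprb2 was at -0.42 (-1.30 to 0.46, adjusted p = 0.539) and Hdc at 0.56 (-1.12 to 2.23, adjusted p = 0.684). For Fcer1a the libraries did not overlap, with 8 to 14 counts in LL37+RAPA and 5 to 7 in control+RAPA libraries (0.62, adjusted p = 0.497). It was the only 1 of 10 members without overlap here, against 41.3% of all genes.

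Rapamycin alone gave no calls. Between control+RAPA and control skin 0 of 10 members were DEGs by edgeR, as were 0% of all genes tested, with 0 members at an unadjusted p under 0.05 (8.65% of all genes) and 0 by DESeq2. Mrgprb2, at 10.5, 16.5 and 9.498 CPM in control+RAPA replicates 1 to 3, was above every control library (log2 fold change 0.76, 95% interval -0.14 to 1.65, adjusted p = 0.644). It was the only 1 of 10 members without overlap here, against 15.7% of all genes. Hdc was at 13.6, 13.7 and 7.71 CPM and overlapped control skin (0.22, -1.49 to 1.93, adjusted p = 0.96). The proteases had estimates between -0.45 and 0.14. Without control replicate 1 all 5 were above 0, between 0.22 and 0.98, with adjusted p between 0.693 and 0.932 (edgeR). The negative direction of Cma1, Mcpt4 and Tpsab1 thus rested on that library, whereas Cpa3 and Tpsb2 were above 0 with it as well.

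Whether the effect of rapamycin differed between LL37 and control skin was tested by the interaction, coded as the LL37+RAPA minus LL37 difference less the control+RAPA minus control difference. By edgeR 0 of 10 members were called, against 2.38% of all genes tested, with 2 at an unadjusted p under 0.05 (22.5% of all genes) and 1 by DESeq2. Hdc was at -3.66 (SE 1.098, adjusted p = 0.0843 by edgeR and 0.0266 by DESeq2) and Mrgprb2 at 1.44 (SE 0.60, adjusted p = 0.185 and 0.0974). Without LL37 replicate 3 both were called by edgeR, Hdc at -4.21 (adjusted p = 0.000862) and Mrgprb2 at 2.50 (adjusted p = 0.00125).

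Across single libraries the 5 proteases and Ms4a2 varied together. Control replicate 1, control+RAPA replicate 2 and LL37+RAPA replicate 2 held the highest level of their group for all of these genes, and Kit was highest in the same libraries. With group means removed, Pearson r of log2 CPM among the 5 proteases was 0.861 to 0.995 over 12 libraries, and that of Ms4a2 with them 0.855 to 0.95, as a description in which all genes share the libraries and their skin samples. For Kit it was 0.462 to 0.71 with the proteases. Mrgprb2 (0.005 to 0.239), Hdc (-0.055 to 0.195) and Fcer1a (-0.576 to -0.471) did not follow the proteases.

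Set against the summed protease counts of the same library, a ratio chosen after the values were seen and given without a test, Mrgprb2 held 0.69 to 2.78% in LL37, 2.42 to 11% in control, 6.65 to 12.8% in control+RAPA and 3.01 to 6.75% in LL37+RAPA libraries. The LL37 range overlapped the control range through control replicate 1 at 2.42% and LL37 replicate 3 at 2.78%. Mrgprb1, a related receptor gene of mast cells, held 1.42 to 1.81% in LL37 and 2.62 to 2.86% in control libraries. Other mast cell genes did not share this: Il1rl1 went the other way, at 17.8 to 26.2% in LL37 and 6.07 to 10.6% in control libraries. For Gata2, Slc18a2 and Slc6a4 the ranges of these groups overlapped. Ms4a2 held 0.805 to 1.33% in LL37 and 0.552 to 0.953% in control libraries. Hdc held 228, 248 and 12.7% in LL37 replicates 1 to 3 and 3.56 to 14.5% in control libraries.

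**Figure D4:**
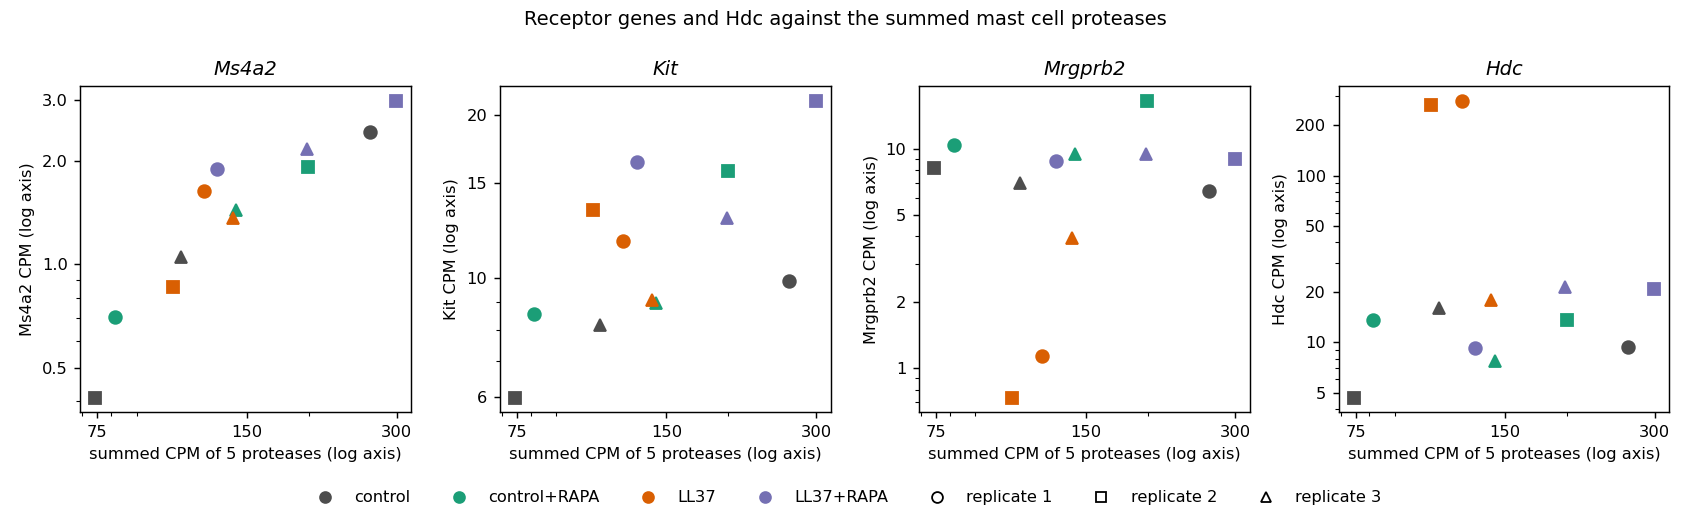
Level of Ms4a2, Kit, Mrgprb2 and Hdc against the summed level of the 5 proteases, in CPM on log axes, with each point a library coloured by group and shaped by replicate number. Ms4a2 rises with the proteases from 0.410 to 2.99 CPM as they go from 74.3 to 299.5 CPM, whereas the LL37 libraries lie low for Mrgprb2, and LL37 replicates 1 and 2 lie high for Hdc, at middle values of the proteases.

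Some genes outside the set followed the proteases closely. By Pearson r of log2 CPM over 12 libraries with the mean of standardised Cma1, Mcpt4, Cpa3 and Tpsb2, the 8 nearest were Efemp1 (0.899), Fli1 (0.895), Hmga1b (0.88), Cyp11a1 (0.878), Arhgap31 (0.877), Mrgprb1 (0.865), Hip1 (0.857) and Ceacam1 (0.854). Of these, Cyp11a1 and Mrgprb1 were on the list of other mast cell genes. The nearest to Kit were Fads1 (0.96), Hsd11b1 (0.936) and Slc23a2 (0.932), the nearest to Hdc were Stx11 (0.984), Slc2a3 (0.981) and Ythdf3 (0.978), and the nearest to Fcer1a were Zfp263 (0.923), Selenos (0.913) and Il12a (0.913). All these genes were picked for the highest r among the genes tested. That choice by itself favours high values over 12 libraries, so they are a description only.

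Other mast cell genes were also mixed in direction. Of 17 listed, 12 were tested, and 1 was a DEG higher and 2 were DEGs lower in LL37 than in control skin. Of all genes, 8.73% were DEGs higher and 10.8% lower. Below the fold limit, Hpgds (log2 fold change 0.63, adjusted p = 0.0107, edgeR) and Rab27b (0.77, adjusted p = 0.0091) were also higher than in control skin. The adenosine receptor gene Adora3 was higher (log2 fold change 1.40, SE 0.34, adjusted p = 0.0065, edgeR), while the serotonin transporter gene Slc6a4 (-1.31, SE 0.35, adjusted p = 0.0106) and the ectonucleotidase gene Enpp3 (-1.06, SE 0.29, adjusted p = 0.0124) were lower. Against LL37+RAPA skin Slc6a4 was lower in LL37 (-1.39, adjusted p = 0.0164) and Rab27b, a regulator of granule release, was higher (1.13, adjusted p = 0.00368). Mrgprb1 was at -1.04 (SE 0.60, adjusted p = 0.188) against control skin. Relative to the summed protease counts, Slc6a4 held 19.3, 72.8 and 36.6% in control replicates 1 to 3. The part of other skin cells in the levels of genes on this list was not tested. The mucosal protease genes Mcpt2 and Mcpt9 had 0 counts in all libraries, and Mcpt1 had 4 counts in control and 32 in LL37 libraries in sum, too few to be tested.

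The list for mast cell growth and survival holds regulators in both senses, so its counts give no direction for either process. Of its genes, 5 of 11 tested were DEGs higher in LL37 than in control skin, against 8.73% of all genes, and 0 were DEGs lower. Without the limit on the fold change, 7 were higher and 2 lower at an adjusted p under 0.05, against 21% and 21.6% of all genes. The 2 lower were the transcription factor genes Mitf (-0.69, adjusted p = 0.0266, edgeR) and Stat5b (-0.47, adjusted p = 0.012). The DEGs included the alarmins Il33 (log2 fold change 2.20, SE 0.33, adjusted p = 0.000323, edgeR) and Tslp (1.26, SE 0.24, adjusted p = 0.00167), the cytokine receptor chain Csf2rb (2.23, adjusted p = 0.00109) and the kinase subunit Pik3cd (1.60, adjusted p = 0.000198). The remaining DEG was Bcl2l11 (1.27, adjusted p = 0.00273, edgeR), whose product promotes cell death. Other leukocytes also transcribe Csf2rb and Pik3cd, and their part was not tested. Against LL37+RAPA skin Il33 was the only DEG of the list (1.43, adjusted p = 0.00923). Kitl, which encodes the ligand of Kit, was at 24.0 ± 2.89 CPM in LL37 and 28.3 ± 4.93 CPM in control skin (SD, n = 3), and was not called (-0.23, adjusted p = 0.257).

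Genes that signal below FcεRI were DEGs higher in LL37 than in control skin in 7 of 17, against 8.73% of all genes, and DEGs lower in 0. At an adjusted p under 0.05 of any fold, 10 were higher and 3 lower, against 21% and 21.6% of all genes. Among the DEGs were Fcer1g (2.27, SE 0.35, adjusted p = 0.000437), the γ chain shared with other Fc receptors, the kinase Lyn (2.31, adjusted p = 0.000759), the adaptor Lcp2 (2.71, adjusted p = 0.000711) and the exchange factor Vav1 (2.47, adjusted p = 4.17e-05), all as log2 fold changes by edgeR. Myeloid cells transcribe these genes too, and the neutrophil list rose in the same libraries, the part of which was not tested. Against LL37+RAPA skin 3 of 17 were DEGs, against 10.1% of all genes, namely Fcer1g (1.18, adjusted p = 0.0271), Lcp2 (1.38, adjusted p = 0.0364) and Syk (1.06, adjusted p = 0.0367). Fcer1g was thus called where the chains that FcεRI adds to it, Fcer1a and Ms4a2, were not, a difference that was not itself tested.

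Of the histamine receptor and transporter genes, 6 of 11 were tested, and the receptor gene Hrh2 was higher in LL37 than in control skin (log2 fold change 2.46, SE 0.61, adjusted p = 0.00684, edgeR) at 3.05 ± 0.966 against 0.546 ± 0.248 CPM (SD, n = 3). The cation transporter gene Slc22a3 was lower in LL37 than in LL37+RAPA skin (-1.15, adjusted p = 0.00694). Slc18a2, which loads histamine into granules, was at -0.06 (adjusted p = 0.909) between LL37 and control skin. On the list for granule storage and protease processing, 4 of 12 genes were DEGs against control skin, all higher in LL37 (8.73% of all genes were), among them the granule proteoglycan Srgn (3.67, SE 0.63, adjusted p = 0.000786) and cathepsin C (Ctsc), which activates granule proteases (1.69, SE 0.23, adjusted p = 0.000206). Srgn was also higher than in LL37+RAPA skin, with overlapping libraries (2.01, adjusted p = 0.0286). Neutrophils and other blood cells also transcribe Srgn, which was at 56.5 to 399 CPM in LL37 libraries, where the neutrophil list was at 331 to 2896 CPM, and the part of such cells in its level was not tested. The proteases that Srgn stores and Ctsc activates did not pass in either comparison.

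The dendritic cell list, since such cells can carry Fcer1a, had 1 of 7 genes as a DEG higher in LL37 than in control skin, against 8.73% of all genes, namely Flt3 (1.66, adjusted p = 0.00438, edgeR). Its summed level was 70.2 to 97.6 CPM in LL37 and 70.8 to 116 CPM in control skin. By the same rule the fibroblast list had 2 of 9 genes as DEGs lower, the keratinocyte list 1 of 9 higher and 1 lower, and the endothelial list 1 of 6 lower. Of all genes, 8.73% were DEGs higher and 10.8% lower. At an adjusted p under 0.05 of any fold, the fibroblast list had 2 higher and 2 lower, the keratinocyte list 2 higher and 2 lower, and the endothelial list 1 lower. Of all genes, 42.6% passed in this way, 21% higher and 21.6% lower.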

How the data were processed

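The authors counted paired-end reads per gene and deposited raw counts by Ensembl identifier for 12 libraries, without normalization. Their methods name HTSeq, whereas the submitters' processing notes list HISAT2 2.0.5, StringTie 1.3.3b, featureCounts 1.5.0-p3, DESeq2 1.16.1 and the build mm10, without roles. The strand setting is not given in the sources used here.

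The test was edgeR 4.0.16 in R 4.3.3, in 1 fit of all 12 libraries (TMM, filterByExpr by group, quasi-likelihood F-test), with 17993 genes tested and symbols from GENCODE M21. DESeq2 1.42.0, other normalizations and filters, a replicate block and leaving out each library were alternatives. Log2 CPM for correlations used a prior count of 2. From each other list, up to 4 DEGs with the smallest p were named, and Bcl2l11 was added to these. Members and lists were chosen with earlier results of these data known. Sequences come from RefSeq.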

Additional observations from a re-analysis of the deposited data

How the results depend on the processing

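Depth limits the values of the FcεRI subunits, which had as few as 4 counts in a library, and 3 libraries per group limit all members. Over 60 results of single members, 1298 alternative values were computed, of which 1284 kept their call, 6 lost it, 8 gained it and 0 changed direction after being called. The alternative at an unadjusted p kept the limit on the fold change, unlike the shares at an unadjusted p given with the results. The number of members called between LL37 and LL37+RAPA skin was 2, but 1 when only the groups compared were fitted, 3 at an unadjusted p (with Tpsb2), and 1 to 2 when libraries were left out. Between LL37+RAPA and control skin it was 1, and 0 to 2 when libraries were left out. For the interaction it was 0, but 1 with a filter of at least 1 count in total, 1 by DESeq2 (Hdc in both), 2 at an unadjusted p, and 0 to 2 when libraries were left out. Between LL37 and control skin it was 2 under every alternative run. Of all genes, 3516 were DEGs in LL37 vs control and 7668 without a limit on the fold change, 1823 and 4359 in LL37 vs LL37+RAPA, 1168 and 2527 in LL37+RAPA vs control, and 1510 and 3338 in LL37+RAPA vs control+RAPA. The count for LL37 vs LL37+RAPA fell to 1104 without LL37 replicate 1 and to 1200 without LL37+RAPA replicate 1, and that for LL37+RAPA vs control was 743 with at least 10 counts required in every library. Between control+RAPA and control skin edgeR called 0 genes, against 53 by DESeq2, 8 with a filter of at least 1 count in total, 7 without control replicate 2 and 332 at an unadjusted p. In the interaction 429 genes were called, but 822 with a filter of at least 1 count in total, 1008 by DESeq2, 199 with the replicate block, 1699 at an unadjusted p, and from 2 without LL37+RAPA replicate 1 to 1760 without LL37 replicate 3. Scaling by library size only shifted the median log2 fold change of all genes to 0.132 in LL37+RAPA vs control, 0.18 in LL37+RAPA vs control+RAPA and 0.108 in the interaction. Replicate numbers were not treated as pairs in the main fit. With group means removed, same-numbered libraries correlated at -0.188 to 0.263, over 0.1 in 4 of 18 pairs. Libraries with different numbers were not correlated for reference, so these values cannot show whether samples were paired. With the replicate number as a block, 2 members were called in LL37 vs control (Hdc at 4.05, Mrgprb2 at -1.93), 2 in LL37 vs LL37+RAPA, 1 in LL37+RAPA vs control and 0 elsewhere. The cause of the lost and gained calls was not tested.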
